A study of Mus musculus with 14 samples.

Results

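Complement genes read in kidney tissue were followed by RNA sequencing of bulk tissue, in which resident and infiltrating cells are read together, over the first days of renal ischemia/reperfusion injury (IRI). The set holds 8 genes, chosen by symbol from the 24411 genes in the deposited counts: C3, Cfb, C4b, Cfi, Serping1, Cd55, C3ar1 and C5ar1. All 8 passed edgeR's filter on low counts, which kept 14300 genes for testing. The kidneys came from male C57/B6 mice aged 8 weeks and were taken at day 0 (4 libraries), day 1 (5 libraries) or day 3 (5 libraries) after renal IRI. The labels give no genotype or drug, do not say whether the day 0 mice had sham surgery, and do not state that each library is a separate animal, so the p-values measure the spread between these libraries, which may be partly technical. Each library name holds a number. It has 3 digits for replicates 1 and 2 of day 1 and replicates 1, 2 and 3 of day 3, and 1 digit for the remaining libraries, day 0 included. What this format marks is not stated, so it was handled as a possible technical batch, and at day 0 it cannot be told apart from the day.

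Complement is a cascade of plasma proteins that tags and lyses targets and calls in leukocytes. Its classical and lectin routes use C4 and C2, its alternative route uses factor B, and all routes meet at C3, whose cleavage products are deposited on surfaces or act as chemoattractants through receptors on cells. Soluble and membrane-bound regulators keep the cascade off host tissue. The liver makes most of the circulating components, but tubular epithelium and other cells of the kidney also make some of them, and the complement made within the kidney has long been studied in ischemic and transplant injury.

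Reads on genes ranged from 12485579 to 20476979 per library. The members had from 3 reads (C5ar1 at day 0) to 10202 reads (Cfb at day 0) in a library, so the precision of the receptors is limited by counting. Values are given as CPM, the reads on a gene per 1000000 reads on genes, scaled by edgeR's TMM method, as mean ± SD. Replicate 4 of day 0 stood apart among the members. It was the lowest of its day for C3, Cfb, C4b, Cfi and C5ar1 and the highest for Cd55 and Serping1. The kidney's own proximal tubule markers were present throughout, with a summed level of 52171 to 54805 CPM over 10 genes at day 0, 22337 to 56766 CPM at day 1 and 11348 to 25731 CPM at day 3. Kap alone averaged 29692 CPM of this at day 0. Among the listed liver markers, Tat and Cps1 had no read at day 0 and Cyp2e1, which proximal tubules also express, made up 2101 ± 146 CPM (SD, n = 4) of the 1947 to 2280 CPM summed at day 0. In a bulk sample, fewer cells of a type and less RNA per cell cannot be told apart.

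Levels of different genes were compared as CPM per kb of exons. At day 0, factor B stood far above the rest with 190 ± 34.8 CPM per kb (SD, n = 4). Serping1 followed with 13.6 ± 1.15 CPM per kb. The lowest library of Cfb, at 138 CPM per kb, lay above the highest library of Serping1, at 15.2 CPM per kb, and the lowest library of Serping1, at 12.5 CPM per kb, lay above the highest of C3, at 7.34 CPM per kb. C3 (5.47 ± 2.07 CPM per kb), Cd55 (4.33 ± 1.38 CPM per kb) and C4b (4.12 ± 1.87 CPM per kb) came next, with ranges that overlapped, and the range of Cfi (2.18 ± 0.816 CPM per kb) overlapped that of C4b. The receptors C3ar1 (0.358 ± 0.310 CPM per kb) and C5ar1 (0.116 ± 0.0480 CPM per kb) were lowest, and their ranges also overlapped. At day 3 the order of the means had changed. C3, at 50.7 ± 36.7 CPM per kb (SD, n = 5), came next after Cfb at 116 ± 46.6 CPM per kb and before Serping1 at 21.1 ± 5.95 CPM per kb. Cfi and C4b stood level at 5.90 ± 5.27 and 5.88 ± 5.03 CPM per kb, above Cd55 at 1.98 ± 0.355 CPM per kb. The ranges of Cfb and C3 overlapped at day 3, from 69.9 to 193 CPM per kb and from 12.9 to 96.9 CPM per kb. Those of C3 and Serping1 (14.8 to 30.3 CPM per kb) overlapped too. C3 lay above Serping1 in replicates 1 to 3 of day 3. In replicates 4 and 5, with 1-digit numbers, C3 (19.4 and 12.9 CPM per kb) lay below Serping1 (21.9 and 30.3 CPM per kb). The ranges of Cfi (2.05 to 14.9 CPM per kb) and C4b (1.38 to 14.2 CPM per kb) also overlapped that of Cd55 (1.67 to 2.57 CPM per kb).

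**Figure D1:**
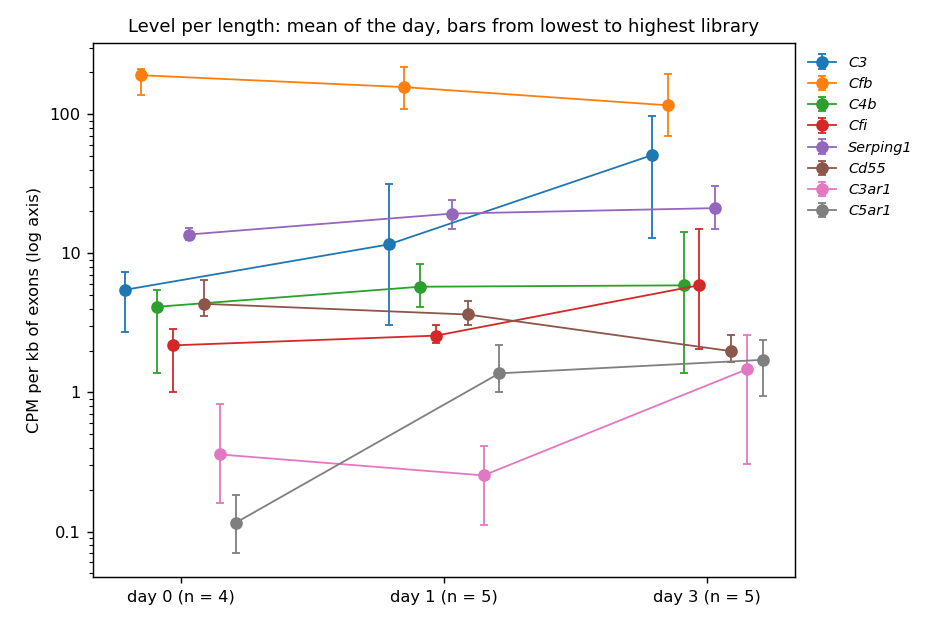
Level of each complement gene as CPM per kb of exons (log axis) at day 0 (n = 4), day 1 (n = 5) and day 3 (n = 5); points are means of the day, bars run from the lowest to the highest library, and lines join the days of a gene. Cfb is highest at every day, while C3 climbs from 5.47 to 50.7 CPM per kb and C5ar1 from 0.116 to 1.71 CPM per kb.

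Against day 0, 2 of the 8 members were higher and none was lower at day 1, where 42.1% of all genes tested had an adjusted p under 0.05, 23.3% higher and 18.7% lower. The members were C5ar1 and Serping1. At day 3, 5 members were higher (C3, Cfi, C3ar1, C5ar1 and Serping1) and 1 was lower (Cd55), where 33.3% of all genes tested were called, 19.5% higher and 13.8% lower. The median log2 fold change of the members was 0.35 at day 1 and 1.03 at day 3, beside 0.01 and 0.05 for all genes tested. Both comparisons share the day 0 libraries. Between day 1 and day 3, C3 and C3ar1 were higher at day 3 and Cd55 was lower, 3 members where 15.9% of all genes tested were called, 8.52% higher and 7.39% lower. C5ar1 was the member whose day 1 libraries did not overlap with day 0, a separation seen in 42% of all genes tested, and at day 3 those of C3, C5ar1 and Cd55 did not overlap with day 0, as in 33.4% of all genes tested. Cell markers moved over the same days: the proximal tubule sum was lower in every library of day 3 than in any of day 0, and the neutrophil sum was higher in every library of both later days. Of 10 proximal tubule markers, 3 were lower at day 1 and 6 at day 3, where 18.7% and 13.8% of all genes tested were, and 0 were higher. Kap, which weighed most in the day 0 sum, went from a mean of 29692 CPM to 5638 CPM at day 3. The mean of Slc5a12 went the other way, from 555 to 866 CPM. The part of these markers in the members' changes was not tested.

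**Figure D2:**
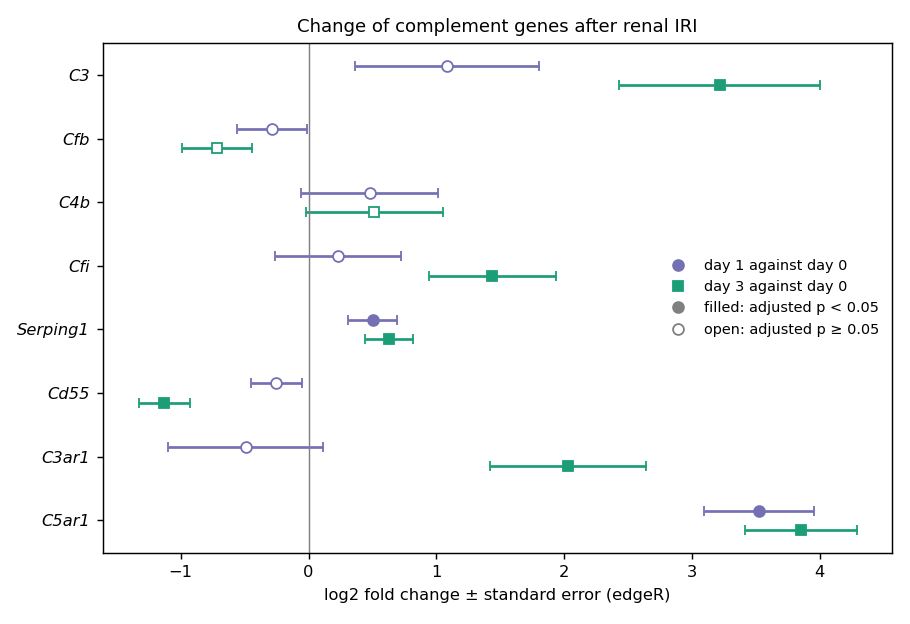
Log2 fold change of the 8 complement genes against day 0 at day 1 (circles) and day 3 (squares), with bars of 1 standard error from edgeR; filled symbols have an adjusted p under 0.05. C5ar1 and Serping1 are filled at both days, C3, Cfi and C3ar1 to the right of 0 and Cd55 to the left of it at day 3 only, and Cfb and C4b at neither day.

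C3, on which all routes of activation converge, lies on the minus strand of mouse chromosome 17 (ENSMUSG00000024164.15, chr17:57203970-57228136, GRCm38). Its level at day 0 was 25.9, 34.8, 37.8 and 14.02 CPM in replicates 1 to 4. At day 1 it was 74.7, 162, 28.4, 16.4 and 15.7 CPM in replicates 1 to 5, and at day 3 it was 498, 232, 408, 99.9 and 66.4 CPM. All 5 libraries of day 3 lay above all 4 of day 0, whereas at day 1 the 2 libraries with 3-digit numbers lay above every day 0 library and the 3 with 1-digit numbers lay within their range. The mean rose from 28.1 ± 10.7 CPM (SD, n = 4) at day 0 to 261 ± 189 CPM (SD, n = 5) at day 3, a log2 fold change of 3.21 (standard error 0.79, edgeR adjusted p = 0.00710). That call was kept in all 12 alternative settings and in all 14 fits that each left out 1 library, with adjusted p up to 0.0249. Its size was less stable, with log2 fold changes from 1.46 to 3.75 over the settings and 1.56 in the 1-digit libraries alone. At day 1, the log2 fold change of 1.09 (standard error 0.72) did not exceed what the spread of the libraries allows (edgeR adjusted p = 0.235). Day 3 against day 1 gave 2.13 (standard error 0.68, edgeR adjusted p = 0.0479), a call that was lost in 3 of 12 alternative settings and in 11 of the 14 fits that left out a library, which are all but those without replicate 2 of day 1 or replicate 4 or 5 of day 3.

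The sequence before the start site of C3 and of its receptor gene C3ar1 is shown because both genes were higher at day 3 and both hold a match to a motif searched here. The sequences are the 250 bases upstream of the start site in RefSeq (GRCm38.p6), written 5′ to 3′ on the gene's strand, which is the minus strand for both: chr17:57228137-57228386 for C3 and chr6:122856158-122856407 for C3ar1. Capitals mark the matches.
C3: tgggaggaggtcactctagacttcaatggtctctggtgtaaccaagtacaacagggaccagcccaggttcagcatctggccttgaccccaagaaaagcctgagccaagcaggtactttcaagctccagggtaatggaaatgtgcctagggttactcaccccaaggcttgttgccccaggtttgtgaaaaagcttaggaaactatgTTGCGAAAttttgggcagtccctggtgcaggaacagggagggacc
C3ar1: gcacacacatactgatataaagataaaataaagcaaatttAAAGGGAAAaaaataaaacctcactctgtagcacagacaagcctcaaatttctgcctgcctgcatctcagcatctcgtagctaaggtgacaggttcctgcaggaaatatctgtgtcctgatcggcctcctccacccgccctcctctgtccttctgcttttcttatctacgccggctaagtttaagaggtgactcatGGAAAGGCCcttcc
The match in C3, TTGCGAAA, starts 45 bases before the start site and fits TTGCNNAA, a pattern of C/EBP factors, which 9.56% of 32851 mouse promoter windows of the same length hold on either strand. In C3ar1, AAAGGGAAA starts 210 bases before the start site and fits AAANNGAAA, written here for interferon-stimulated response elements and held by 9.37% of the windows. Nearer the start site, GGAAAGGCC at 14 bases before it fits GGNNTTTCC, an NF-kB-like pattern, on the opposite strand (4.93% of the windows). The fourth pattern searched, TTCNNNGAA for STAT factors, occurs in 7.02% of the windows. It was in neither of these, and no pattern matched in the windows of C5ar1 and Cd55. Windows for 4 of the 8 members were in the RefSeq table used. A match of letters is a description and does not show binding.

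Cfb encodes factor B, the protease precursor of the alternative route, and lies on the same chromosome (ENSMUSG00000090231.10, chr17:34856374-34862518, minus strand). It had 587, 597, 577 and 391 CPM in replicates 1 to 4 of day 0. Its day 1 libraries had 323, 307, 617, 502 and 460 CPM in replicates 1 to 5, and at day 3 it had 335, 546, 280, 197 and 277 CPM. The values at day 3 were mostly below those of day 0 but overlapped with them through replicate 2 of day 3 and replicate 4 of day 0. Its mean went from 538 ± 98.4 CPM (SD, n = 4) through 442 ± 129 CPM (SD, n = 5) to 327 ± 132 CPM (SD, n = 5) over the days. The log2 fold changes of -0.28 at day 1 (standard error 0.28, edgeR adjusted p = 0.419) and -0.72 at day 3 (standard error 0.28, edgeR adjusted p = 0.0576) did not pass the threshold. Without replicate 4 of day 0 the day 3 value was -0.85 with an edgeR adjusted p of 0.0478, and it also passed without replicate 1 or 2 of day 1 or replicate 2 of day 3, in the 1-digit libraries alone, and with DESeq2 (-0.74, adjusted p = 0.0306). In the annotation Cfb overlaps another gene, Gm20547, on the same strand, so its counts and its level per kb are uncertain where reads fall on both genes. C2 overlaps Gm20547 on the same strand too and shares this limit.

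Factor B and C3 moved unequally. Per kb of exons, Cfb exceeded C3 from 27.8 to 50.7 times in the day 0 libraries. At day 1 the ratio was 39.5 to 55.8 in the 3 libraries with 1-digit numbers, within or just above the day 0 range, but 7.86 and 3.44 in the 2 with 3-digit numbers. At day 3 it lay between 1.22 and 7.59 in all 5 libraries, below every library of day 0.

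C4b encodes C4, the component that the classical and lectin routes cleave to build a C3 convertase (ENSMUSG00000073418.4, chr17:34728380-34743882, minus strand). At day 0 it had 29.6, 31.1, 25.4 and 7.92 CPM in replicates 1 to 4. At day 1 it had 23.4, 23.4, 47.5, 39.1 and 30.3 CPM in replicates 1 to 5, and at day 3 it had 37.9, 80.9, 22.8, 7.86 and 17.9 CPM. The days overlapped throughout, and the spread was widest at day 3, where the highest library had 10.3 times the level of the lowest. Neither day 1 (log2 fold change 0.48, standard error 0.54, edgeR adjusted p = 0.489) nor day 3 (0.51, standard error 0.54, edgeR adjusted p = 0.476) passed the threshold against day 0. The near-identical C4a, a neighbor on chromosome 17, did fall at day 3, from 55.2 ± 28.1 CPM (SD, n = 4) to 5.42 ± 4.46 CPM (SD, n = 5), a log2 fold change of -3.36 (standard error 0.62, edgeR adjusted p = 0.00134). Counts of uniquely mapped reads can divide such copies unevenly, so both genes' levels are uncertain. C4a was also low in replicate 4 of day 0, at 14.7 CPM beside 58.3 to 77.8 CPM in the other 3.

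Cfi encodes factor I, a soluble protease that inactivates C3b and C4b (ENSMUSG00000058952.12, chr3:129835884-129875332, plus strand). Its level was 5.002, 6.29, 5.81 and 2.24 CPM in replicates 1 to 4 of day 0. Its day 1 values were 5.22, 5.04, 6.20, 5.20 and 6.75 CPM in replicates 1 to 5, and at day 3 it was 13.9, 33.0, 7.32, 6.59 and 4.55 CPM. Day 1 lay within the range of day 0 apart from replicate 5, which was above it. At day 3, replicates 1 and 2 stood apart from all other libraries, replicates 3 and 4 were just above the highest of day 0 and replicate 5 was inside its range. At day 3 the log2 fold change was 1.44 (standard error 0.50, edgeR adjusted p = 0.0388). This call was lost in 3 of 12 alternative settings and in 7 of the 14 fits that left out a library: any of the 4 of day 0 (1.20 and an edgeR adjusted p of 0.105 without replicate 4), replicate 1 of day 1, and replicate 1 or 2 of day 3. Against day 0, the 1-digit libraries of day 3 alone gave 0.21 (edgeR adjusted p = 0.743).

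Serping1 encodes the C1 inhibitor, which blocks the first proteases of the classical and lectin routes as well as those of the contact system (ENSMUSG00000023224.12, chr2:84765387-84775444, minus strand). It had 29.0, 31.2, 31.2 and 35.4 CPM in replicates 1 to 4 of day 0. Day 1 gave 55.9, 44.8, 34.5, 45.5 and 43.6 CPM in replicates 1 to 5, and day 3 gave 39.5, 34.5, 50.1, 50.8 and 70.5 CPM. In each of the later days 1 library fell just under the highest library of day 0 and the other 4 lay above it. The log2 fold change was 0.50 at day 1 (standard error 0.19, edgeR adjusted p = 0.0460) and 0.63 at day 3 (standard error 0.19, edgeR adjusted p = 0.0209). The rises were 1.41-fold and 1.55-fold. The day 1 call was lost in 6 of 12 alternative settings and in 10 of the 14 fits that left out a library (any of day 0, replicates 1, 2, 4 and 5 of day 1, and replicates 3 and 4 of day 3), with adjusted p up to 0.120. The day 3 call was lost in 3 of 12 settings and without replicate 1, 2 or 3 of day 0, with adjusted p up to 0.0845. Without replicate 4 of day 0 the day 1 value was 0.56 with an edgeR adjusted p of 0.0570.

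Cd55 encodes decay-accelerating factor, a membrane protein that dismantles C3 convertases on the cell that carries it (ENSMUSG00000026399.12, chr1:130439027-130462744, minus strand). At day 0 it had 17.9, 17.1, 18.1 and 31.007 CPM in replicates 1 to 4. At day 1 it had 14.9, 16.8, 17.2, 21.9 and 17.3 CPM in replicates 1 to 5, and at day 3 it had 8.09, 9.68, 12.5, 8.47 and 9.32 CPM. Every library of day 3 was below every library of day 0 and of day 1, and days 1 and 3 did not overlap in 7.61% of all genes tested. Cd55 fell by 1.13 on the log2 scale at day 3 (standard error 0.20, edgeR adjusted p = 0.00110), and the call was kept in all 12 alternative settings and all 14 fits that left out a library. Without replicate 4 of day 0, which was high, it fell by 0.88 (edgeR adjusted p = 0.00371). Compared with day 1 it fell by 0.87 (standard error 0.19, edgeR adjusted p = 0.0101; 0.111 with the 3-digit libraries alone), while the log2 fold change of -0.25 at day 1 did not pass the threshold (edgeR adjusted p = 0.317). An annotated antisense gene, Gm16083, overlaps Cd55 on the other strand, which the strand-specific counts used here leave out.

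**Figure D3:**
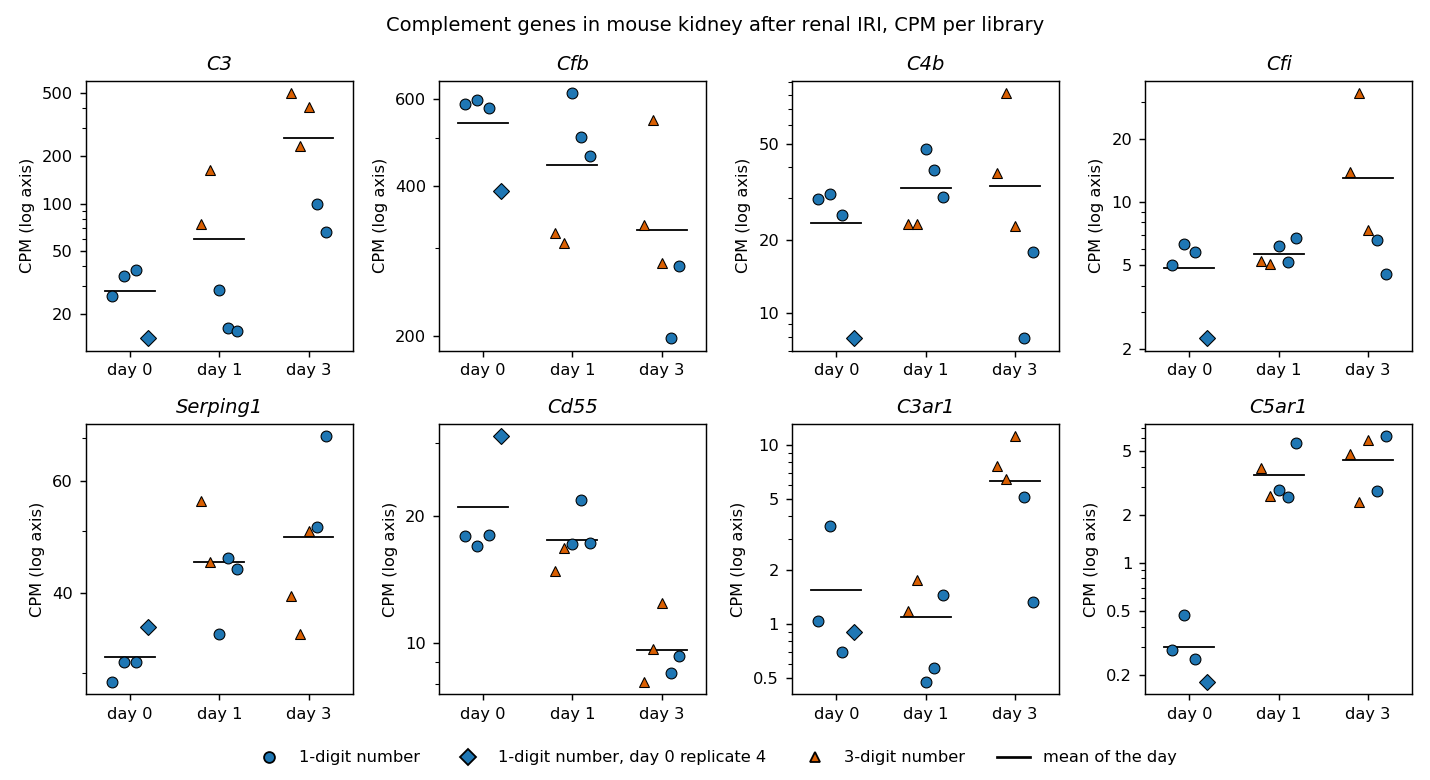
CPM of each complement gene in all 14 libraries on log axes that differ between panels; circles are libraries with 1-digit numbers, triangles those with 3-digit numbers, the diamond is replicate 4 of day 0, and horizontal lines are means of the day. At day 3 all 5 libraries lie above day 0 in C3 and C5ar1 and below it in Cd55, and the triangles of C3 lie above the circles at day 1 and at day 3.

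C3ar1 encodes the receptor of the anaphylatoxin C3a (ENSMUSG00000040552.8, chr6:122847138-122856161, minus strand). It had 1.03, 3.53, 0.695 and 0.907 CPM in replicates 1 to 4 of day 0. Day 1 gave 1.18, 1.77, 0.477, 0.571 and 1.45 CPM in replicates 1 to 5, and at day 3 it had 7.58, 6.42, 11.1, 5.11 and 1.32 CPM. Replicates 1 to 4 of day 3 were above every other library, and replicate 5 lay within the ranges of day 0 and day 1. The log2 fold change was 2.03 against day 0 (standard error 0.61, edgeR adjusted p = 0.0207) and 2.52 against day 1 (standard error 0.58, edgeR adjusted p = 0.0122). The call against day 1 was kept with each library left out but not in the 1-digit libraries alone (1.99, edgeR adjusted p = 0.0519). That against day 0 was lost without replicate 1, 3 or 4 of day 0 (1.85 and an edgeR adjusted p of 0.0605 without replicate 4), with the format as a term (1.21, edgeR adjusted p = 0.112) and in the 1-digit libraries alone (1.06, edgeR adjusted p = 0.178). Libraries held 7 to 225 reads on this gene.

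C5ar1 encodes the receptor of C5a, which draws and activates neutrophils and macrophages (ENSMUSG00000049130.6, chr7:16246743-16259540, minus strand). At day 0 it had 0.287, 0.471, 0.253 and 0.181 CPM in replicates 1 to 4, which are 3 to 8 reads per library. At day 1 it had 3.93, 2.63, 2.86, 2.57 and 5.63 CPM in replicates 1 to 5, and at day 3 it had 4.78, 2.42, 5.84, 2.82 and 6.17 CPM. Every library of both later days lay above every library of day 0, and the later days overlapped with each other. The log2 fold change was 3.52 at day 1 (standard error 0.43, edgeR adjusted p = 6.2e-05) and 3.85 at day 3 (standard error 0.44, edgeR adjusted p = 4.89e-05), and both calls were kept in all 11 alternative settings that tested the gene and with each library left out. The gene passed the filter on low counts only through the later days, where it is high, and the kept calls carry this limit. The setting that asked for at least 10 counts in every library left it out. Day 3 against day 1 gave 0.33 (standard error 0.33, edgeR adjusted p = 0.530).

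Both receptors are carried by myeloid cells, so the marker lists of these cells are given beside them. The summed level of 9 neutrophil markers was 1.39 to 2.07 CPM at day 0, where Mpo, Elane and Camp had no read, 49.2 to 217 CPM at day 1 and 19.3 to 477 CPM at day 3. All 6 neutrophil markers tested were higher at day 1 and at day 3, where 23.3% and 19.5% of all genes tested were. S100a8, Cxcr2, Retnlg and Ngp had at most 0.517, 0.230, 0.0631 and 0.0631 CPM at day 0. They passed the filter on low counts only through the later days, where they are high, so a call of higher was in part set by it. The 10 macrophage markers summed to 165 to 228 CPM at day 0, 90.05 to 120 CPM at day 1 and 150 to 446 CPM at day 3. Of these, 1 was higher and 2 lower at day 1, where 23.3% and 18.7% of all genes tested were. At day 3, 4 were higher and 1 lower, where 19.5% and 13.8% of all genes tested were. Among the day 3 libraries, the macrophage sum was 268, 306 and 446 CPM in replicates 1 to 3 and 150 and 154 CPM in replicates 4 and 5, and C3ar1 was likewise higher in replicates 1 to 3. Lyz2 weighed most in the day 3 sum, with a mean of 136 CPM beside 33.9 CPM at day 0. Csf1r went the other way, with means of 90.2 CPM at day 0 and 24.8 CPM at day 3, and Adgre1 had 4.64 and 3.72 CPM. The neutrophil sum and C5ar1 were both highest of day 1 in replicate 5 and highest of day 3 in replicate 5. S100a8 and S100a9 made up most of the neutrophil sum, with means of 26.0 and 49.9 CPM at day 1 and 43.1 and 61.3 CPM at day 3. This sum and C5ar1 did not run together throughout. In replicate 4 of day 1 the neutrophil sum came next, at 96.6 CPM, but C5ar1 was lowest, at 2.57 CPM. Replicates 3 and 4 of day 3 had like sums (71.3 and 68.5 CPM) but 5.84 and 2.82 CPM of C5ar1. The part of these cells in the receptors' levels was not tested.

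Members were also compared between the number formats of the libraries. With the 5 combinations of day and format fitted as groups, 1 member differed between formats at day 1, where 35% of all genes tested did, and 3 at day 3, where 18.5% did. At day 1 this member was C3, higher in the 3-digit libraries by 2.56 on the log2 scale (standard error 0.44, edgeR adjusted p = 0.00125). The 3-digit libraries had 119 ± 62.1 CPM of C3 (SD, n = 2) and the 1-digit libraries 20.2 ± 7.15 CPM (SD, n = 3). The formats did not overlap in C3 at day 1 or at day 3, as in 60.7% and 41.4% of all genes tested. At day 3 the 3-digit libraries were higher in C3 by 2.19 (standard error 0.48, edgeR adjusted p = 0.0114), in C4b by 1.87 (standard error 0.59, edgeR adjusted p = 0.0427) and in Cfi by 1.70 (standard error 0.54, edgeR adjusted p = 0.0448). The day 3 difference in C3 was lost without replicate 5 of day 3 (edgeR adjusted p = 0.128). Those in C4b and Cfi were lost in 10 and 11 of the 14 fits that left out a library, and C4b kept its call without replicate 4 of day 0, replicate 3 of day 1, or replicate 1 or 3 of day 3. When the libraries of day 3 were fitted alone, 0 members were called by edgeR, with C3 the nearest (adjusted p = 0.0625). Cfb stood at -0.74 at day 1 (edgeR adjusted p = 0.0523), and without replicate 4 of day 0 the adjusted p was 0.0422. For C5ar1 the difference was -0.16 at day 1, which turned to 0.04 without TMM scaling (edgeR adjusted p = 0.822 with it), and -0.04 at day 3 (edgeR adjusted p = 0.956).

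Summed levels of cell markers also differed between the formats. At day 1 the summed level of 10 injured tubule markers was 31612 and 36669 CPM in the 3-digit libraries and 8369 to 16235 CPM in the 1-digit libraries, and the proximal tubule sum was 22337 and 34748 CPM against 44369 to 56766 CPM. Spp1 made up most of the injured tubule level, with a mean of 16684 CPM at day 1 and 24511 CPM at day 3. Kap made up most of the proximal tubule level at day 1, with a mean of 25980 CPM. At day 3 the injured tubule sum was 6539 to 32304 CPM in the 3-digit and 35952 and 43958 CPM in the 1-digit libraries, while the macrophage sum was 268 to 446 CPM against 150 and 154 CPM. By edgeR, 3 of the 10 injured tubule markers were higher in the 3-digit libraries at day 1, and 1 was lower at day 3. Of 10 proximal tubule markers, 5 were lower at day 1 and 4 higher at day 3. Of 10 macrophage markers, 1 was higher at day 1, and 7 were higher and 1 lower at day 3. Of all genes tested, 35% differed at day 1 and 18.5% at day 3. Their part in the members' format differences was not tested.

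**Figure D4:**
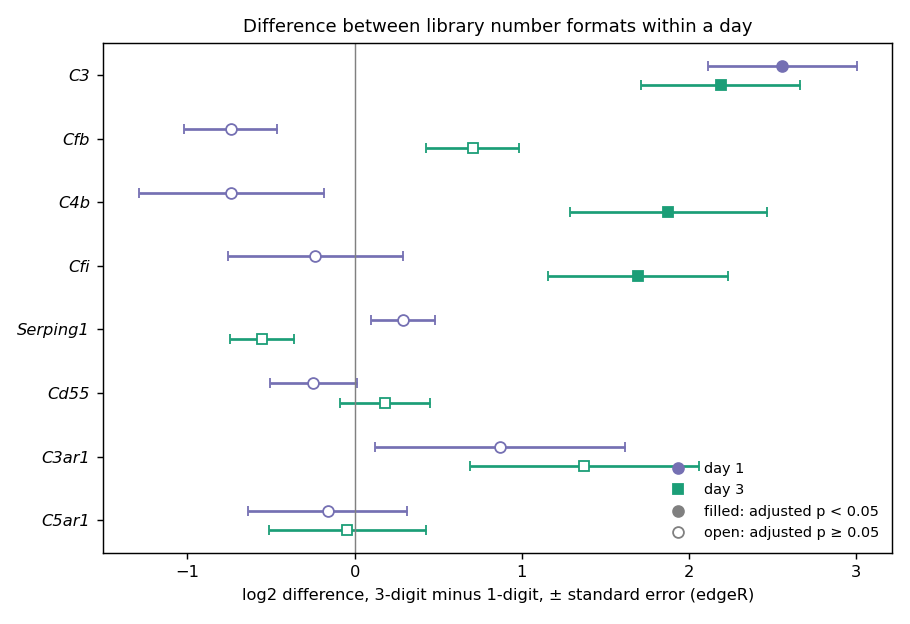
Log2 difference between libraries with 3-digit and with 1-digit numbers within day 1 (circles; 2 against 3 libraries) and day 3 (squares; 3 against 2), with bars of 1 standard error from edgeR; filled symbols have an adjusted p under 0.05. C3 lies at 2.56 and 2.19, while Cfb and C4b lie to the left of 0 at day 1 and to the right of it at day 3.

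Between the days, the format difference itself changed for some members. The difference at day 1 minus that at day 3 was -2.61 for C4b (standard error 0.81, edgeR adjusted p = 0.0403), -1.45 for Cfb (standard error 0.39, edgeR adjusted p = 0.0229) and 0.84 for Serping1 (standard error 0.27, edgeR adjusted p = 0.0478), 3 members where 17.6% of all genes tested were called. At day 1, Cfb was 315 ± 11.2 CPM in the 3-digit libraries (SD, n = 2) and 526 ± 81.1 CPM in the 1-digit ones (SD, n = 3), beside 387 ± 140 CPM (SD, n = 3) and 237 ± 56.2 CPM (SD, n = 2) at day 3. C4b was 23.4 ± 0.0339 CPM (SD, n = 2) and 39.0 ± 8.62 CPM (SD, n = 3) at day 1, beside 47.2 ± 30.2 CPM (SD, n = 3) and 12.9 ± 7.11 CPM (SD, n = 2) at day 3. For both genes the 3-digit libraries were the lower ones at day 1 and the higher ones at day 3. Serping1 went the other way, with 50.3 ± 7.81 CPM (SD, n = 2) against 41.2 ± 5.88 CPM (SD, n = 3) at day 1, beside 41.4 ± 7.95 CPM (SD, n = 3) against 60.6 ± 13.9 CPM (SD, n = 2) at day 3. Taken within a day, the format difference of Cfb passed at neither day 1 nor day 3 (edgeR adjusted p = 0.0523 and 0.0875). Nor did that of Serping1 (edgeR adjusted p = 0.258 and 0.0592). That of C4b passed at day 3 but not at day 1 (edgeR adjusted p = 0.318), so opposite directions were not shown by test.

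Split by format, the comparisons with day 0 gave partly different members. With the 1-digit libraries, which share their format with day 0, C5ar1 was higher at day 1 (1 of 8 members, where 58.5% of all genes tested were called), and C3 stood at -0.48 (edgeR adjusted p = 0.295). At day 3 the 1-digit libraries were higher in C3 by 1.56 (edgeR adjusted p = 0.00571), in C5ar1 by 3.87 (edgeR adjusted p = 7e-05) and in Serping1 by 0.94 (edgeR adjusted p = 0.000876), and lower in Cd55 and Cfb (5 members, where 53.7% of all genes were called). Here Cd55 fell by 1.24 (edgeR adjusted p = 0.00182) and Cfb fell by 1.18 (edgeR adjusted p = 0.00281). With the 3-digit libraries, 4 members were called at day 1, where 41.6% of all genes were: C3 by 2.08, C5ar1 by 3.42 and Serping1 by 0.67 were higher (edgeR adjusted p = 0.00142, 0.000244 and 0.00992), and Cfb fell by 0.77 (edgeR adjusted p = 0.0326). At day 3 the 3-digit libraries were higher in C3, Cfi, C3ar1 and C5ar1 and lower in Cd55 (5 members, where 32.4% of all genes were called), with C3 at 3.75 (edgeR adjusted p = 1.99e-05) and Cd55 at -1.06 (edgeR adjusted p = 0.00330). Both sets of comparisons use the same day 0 libraries. Since these have 1-digit numbers, the values of the 3-digit libraries mix day with format.

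The other complement genes described here comprise 48 symbols, of which 30 were tested. At day 1, 4 were higher and 3 lower (23.3%, beside 42.1% of all genes tested), and at day 3, 8 were higher and 4 lower (40%, beside 33.3%). By role and without the 8 members, the recognition and early components had 1 higher and 1 lower of 14 tested at day 1 and 2 of each at day 3. Properdin (Cfp) was the 1 gene tested beside C3 and Cfb in the alternative pathway, and it was higher at day 3. At the same day the terminal components had 1 higher and 1 lower of 3, the soluble regulators 1 higher of 2, the membrane regulators 0 called of 4 by edgeR (0 also at an unadjusted p under 0.05) and the receptors 3 higher and 1 lower of 6.

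Among the early components, Masp1, a lectin route protease, was higher by 2.41 at day 1 and 2.90 at day 3 (edgeR adjusted p = 0.00241 and 0.00109), and Masp2, the other one, fell by 1.82 and 2.71 (edgeR adjusted p = 0.0146 and 0.00281). The day 1 call of Masp2 was lost without replicate 2 of day 0 (-1.56, edgeR adjusted p = 0.0526) and in the 3-digit libraries alone (-1.04, edgeR adjusted p = 0.128). C1qa, which with its partner genes makes the recognition molecule of the classical route, stood at 0.43 and 0.63 (edgeR adjusted p = 0.336 and 0.180), and C2 at 0.28 and 0.48 (edgeR adjusted p = 0.450 and 0.207). Cfp, which stabilizes the alternative route's convertase, went from 1.95 ± 0.522 CPM (SD, n = 4) at day 0 to 9.09 ± 2.97 CPM (SD, n = 5) at day 3, a log2 fold change of 2.22 (standard error 0.32, edgeR adjusted p = 0.000263). Cfd, the protease that cleaves factor B, was not tested: 0 to 9 reads were counted in 12 of the libraries, 406 in replicate 4 of day 0 and 235 in replicate 2 of day 1.

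In the terminal pathway, C8a, a chain of the pore-forming C8, went from 53.7 ± 4.39 CPM (SD, n = 4) through 2.59 ± 1.09 CPM (SD, n = 5) to 0.549 ± 0.656 CPM (SD, n = 5) over the days. Its log2 fold changes were -4.38 and -6.56 (edgeR adjusted p = 3.76e-05 and 7.35e-06). C7 was higher at day 3 by 1.97 (edgeR adjusted p = 0.0320), a call that was lost with the format as a term and without replicate 1, 3 or 4 of day 0 or replicate 3 or 4 of day 3 (adjusted p up to 0.0881). Hc, the gene of C5, was at most at 1.09 CPM in a library and was not tested, nor was C5ar2, the second receptor of C5a, at most 0.367 CPM.

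Of the regulators, clusterin (Clu), which blocks the terminal complex, was higher by 3.28 at day 1 and 3.30 at day 3 (edgeR adjusted p = 2.85e-06 and 4.19e-06), from 146 ± 30.03 CPM (SD, n = 4) to 1418 ± 254 and 1436 ± 434 CPM (SD, n = 5 each). Cr1l, the gene of Crry, a membrane regulator that in rodents acts on C3 convertases as Cd55 does, stood at 0.32 and 0.12 (edgeR adjusted p = 0.0799 and 0.524). Among the receptors, Itgam, a chain of complement receptor 3, was higher by 3.02 and 4.64 (edgeR adjusted p = 0.00168 and 0.000200), its partner Itgb2 by 1.90 at day 3 (edgeR adjusted p = 0.00147), and Cd93 by 2.32 and 1.46 (edgeR adjusted p = 0.00258 and 0.0314). The day 3 call of Cd93 was lost with the replicate block, in the 3-digit libraries alone, and without any 1 library of day 0 or replicate 4 or 5 of day 3 (adjusted p up to 0.103). Both integrin genes are also leukocyte markers. The lower receptor was Cr2, with at most 24 reads in a library (log2 fold change -2.13 at day 3, edgeR adjusted p = 0.00517), named here after its values were seen.

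**Figure D5:**
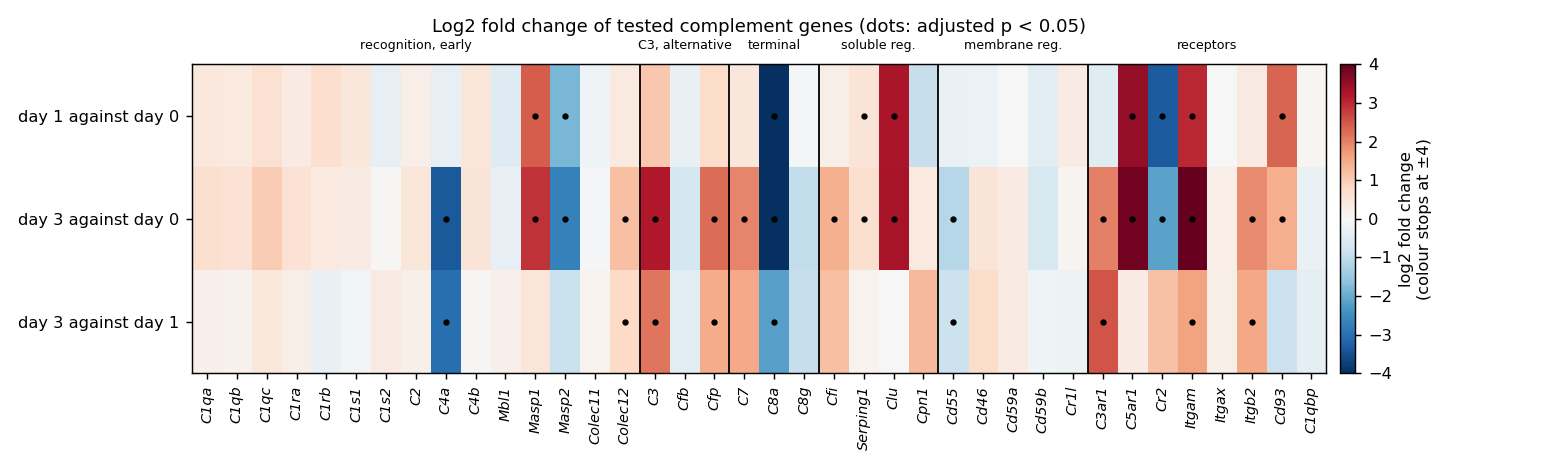
Log2 fold change of the 38 tested complement genes, members included, in the 3 comparisons of days, ordered by role; red is higher and blue lower in the later day, the colour stops at 4 in either direction, and dots mark an adjusted p under 0.05 by edgeR. Clu, Itgam and C5ar1 are deep red and C8a deep blue in both comparisons with day 0, and most early components carry no dot.

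The genes whose log2 CPM ran most like that of each member over the 14 libraries, among 13326 genes, were taken by Pearson's r as a description. The libraries share the day as well as the number format. For C3 they were Ezh2 (r = 0.955), Mxra7 (0.954) and Knstrn (0.946), for Cfb Aoah (0.951), Fcamr (0.945) and Susd2 (0.942), and for C4b Lctl (0.838), Rab24 (0.831) and Pak1 (0.787). For Cfi they were Tm6sf2 (0.853), Cldn6 (0.837) and Apoe (0.837), for Serping1 Ptpn9 (0.947), Esyt2 (0.941) and Micall1 (0.937), and for Cd55 Tmem45b (0.943), Gusb (0.930) and Slc6a15 (0.912). For C3ar1 they were Clec4a2 (0.953), Tlr7 (0.931) and G2e3 (0.915), and for C5ar1 Csf2rb (0.981), Cxcr2 (0.976) and Cd300lf (0.976). Cxcr2 is one of the neutrophil markers listed. Among the members themselves, r was 0.816 between C3 and C3ar1, 0.745 between C5ar1 and Serping1, 0.694 between C4b and Cfi, -0.763 between C3 and Cd55 and -0.783 between Cfb and Serping1, all over the same 14 libraries.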

How the data were processed

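Per the labels, TRIzol served for RNA extraction from the kidneys and an Illumina TruSeq kit for the libraries. The authors deposited 1 file of read counts per gene and library, made with STAR after Trimmomatic on mm10 per the submitters' processing notes, with versions not given in the sources used here. The counts are raw. The reverse-strand column was used, since it held 98.5% to 98.7% of the reads of the 2 strand columns. Lines that name no gene held 29.0% to 38.3% of all reads and were left out.

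Days were compared with edgeR 4.0.16 (R 4.3.3, limma 3.58.1): filterByExpr by day, TMM scaling, the quasi-likelihood test over all 14 libraries, and Benjamini-Hochberg adjustment over 14300 genes with a threshold of 0.05. A fit of 5 groups by day and format gave the format differences. Exon lengths and loci came from a GENCODE annotation of GRCm38. The edgeR fits were run on simulated counts for day 1 and day 3 against day 0 and for format at day 1. The other steps were not.

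The members and lists were chosen with earlier results of these data known, and the adipocyte list was added after the values of Cfd were seen. All 8 members were named, beside fixed complement genes, of which 1 is not reported here and was left out of the lists, and, per member, the 3 genes of a mean of at least 1 CPM with the highest Pearson's r. Alternatives were other scalings, count filters, the unstranded column, DESeq2 1.42.0, a minimum fold change, fewer libraries, format as a term, a replicate block and leaving out each library. Reads from the strands of Cd55 and its antisense neighbour cannot be told apart in the unstranded alternative.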

Additional observations from a re-analysis of the deposited data

Results flagged for a closer look

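Within each day, the log2 CPM of each member was searched for a library far from the others by Dixon's criterion, over 24 groups of 4 or 5 libraries, where chance marks about 1 group in 20. All 3 groups found were of day 0 and held replicate 4. For C4b it lay at 3.01, beside 4.67 to 4.96 in the other 3 libraries. For Cfb, the gene of factor B, it lay at 8.61, beside 9.17 to 9.22, and for Cd55, a membrane regulator, it lay at 4.96, beside 4.10 to 4.18. The same library had 406 reads on Cfd, a gene abundant in fat cells, and its 10 adipocyte markers summed to 237 CPM, beside 71.1 to 79.0 CPM in the other day 0 libraries. That sum was not particular to it, being 98.1 to 194 CPM at day 1 and 54.2 to 243 CPM at day 3, with the highest in replicate 5 of day 3, which had 1 read on Cfd. Urothelium markers summed to 74.8 CPM in replicate 4 of day 0, beside 2.59 to 12.6 CPM in the others of that day, injured tubule markers to 1562 CPM beside 1227 to 1291 CPM, and endothelial markers to 545 CPM beside 437 to 469 CPM. The part of these markers in its member values was not tested.

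The difference between library name formats (3-digit minus 1-digit) was not the same at day 1 and day 3 for 3 members by the test of the difference itself. Day 1 minus day 3 gave -2.61 for C4b, -1.45 for Cfb and 0.84 for Serping1 (edgeR adjusted p = 0.0403, 0.0229 and 0.0478). These calls were lost in 10, 3 and 11 of the 14 fits that left out a library. For Cfb the 3 were those without replicate 1 or 2 of day 1 or replicate 4 of day 3, and for Serping1 they include that without replicate 4 of day 0 (0.84, edgeR adjusted p = 0.0536). Over 7 alternative settings the calls of C4b and Cfb were kept, and that of Serping1 was lost with RLE size factors, with no count filter and with a log2 fold change of at least 1 (adjusted p up to 0.0631).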

How the results depend on the processing

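Over the alternative settings, the values of single complement genes kept direction and side of the threshold in 776 of the results, moved past it in 22, dropped under it in 57 and turned sign in 17. Members called at day 1 against day 0 numbered 2 in the report, 1 without TMM scaling, with no count filter, with a log2 fold change of at least 1, with a replicate block or with the 1-digit libraries alone, 4 with the 3-digit libraries and 0 with at least 10 counts in every library, where C3ar1 and C5ar1 were not tested and Serping1 had an edgeR adjusted p of 0.0543. Members differing by format at day 1 numbered 1 in the report, 2 with RLE size factors, with at least 10 counts or with DESeq2, and 3 with that day's libraries alone, which at day 3 gave 0 in place of 3. With 1 library left out, the counts ran from 1 to 2 (day 1 against day 0), 3 to 7 (day 3 against day 0), 2 to 4 (day 3 against day 1), 1 to 2 and 0 to 4 (format at day 1 and day 3) and 0 to 4 (between the days).

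The labels do not state that replicate numbers pair the libraries. Of 13 correlations of same-numbered libraries, from -0.17 to 0.26, 4 were over 0.1. Libraries with different numbers were not correlated, so this count cannot tell whether the numbers mark pairs. At days 1 and 3, same-numbered libraries also share their format, except in replicate 3. The replicate block left 1, 5 and 3 members called in the 3 comparisons of days, and Serping1 then stood at 0.44 and 0.53 against day 0 (edgeR adjusted p = 0.0962 and 0.0620).

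The signs that turned were those of log2 differences that had not passed the threshold. Without TMM, C5ar1 gave 0.0354 for format at day 1 and 0.0430 between the days. C4b at day 3 against day 1 was -0.39 with the block, -0.27 with a format term and -1.60 in 1-digit libraries. C3 at day 1 was -0.40 with the format term and -0.48 in 1-digit libraries, and Cfi at day 1 was -0.0116 with the term. In 1-digit libraries, C4b, C2 and C1qa at day 3 were -0.87, -0.10 and -0.0793, and Cfi at day 3 against day 1 was -0.11. In 3-digit libraries, C4b and C2 at day 1 were -0.00584 and -0.14, Cr1l at day 3 was -0.0897, and Cfb and Serping1 at day 3 against day 1 were 0.30 and -0.28. With 1 library left out, signs turned within -0.75 to 0.31 for C3ar1 and -0.00728 to 0.38 for Cfi at day 1, -0.12 to 0.77 for C4b at day 3, -0.59 to 0.29 for C4b and -0.0567 to 0.23 for Serping1 at day 3 against day 1, -0.49 to 0.27 and -0.50 to 0.61 for C5ar1 by format at day 1 and day 3, and between the days -0.30 to 0.81 for C3, -0.77 to 0.34 for C5ar1 and -1.79 to 0.17 for C3ar1. The cause of these changes was not tested. Omitting TMM moved the median of all genes by 0.14 at day 3 against day 0, 0.15 against day 1, 0.21 for format at day 1 and 0.17 between the days. The few reads on C5ar1 and C3ar1 at day 0 limit their fold changes.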

Other observations

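Some markers of other kidney cells moved over the same days as the complement genes. The sum of 10 injured tubule markers was 1227 to 1562 CPM at day 0, 8369 to 36669 CPM at day 1 and 6539 to 43958 CPM at day 3, and 9 of them were higher at day 1 and 8 at day 3, where 23.3% and 19.5% of all genes tested were. Most of this sum was Spp1, with means of 1034, 16684 and 24511 CPM at day 0, day 1 and day 3. Fibroblast and pericyte markers summed to 150 to 168 CPM, 172 to 483 CPM and 571 to 1195 CPM, with 2 of 10 higher at day 1, near the share of all genes, and 6 at day 3. Endothelial markers summed to 437 to 545 CPM, 528 to 676 CPM and 271 to 1078 CPM. Of these 10, 2 were higher and 2 lower at day 1, where 42.1% of all genes tested were called. At day 3, 0 of the 10 were called by edgeR, where 33.3% of all genes tested were.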
